A study of Mus musculus with 26 samples.

Results

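Transcripts of 8 serotonin receptor genes were followed in ribosome-bound RNA of D2 neurons of mouse dorsal striatum. The genes are Htr1a, Htr1b, Htr1d, Htr2a, Htr2c, Htr4, Htr6 and Htr7, chosen by name, and they are 8 of 31979 genes joined over the 26 count tables. All mice carried Drd2-TRAP CP101, a transgene in which regulatory sequence of Drd2, the D2 dopamine receptor gene, drives the ribosomal protein Rpl10a fused to EGFP, on an FVB/N-Swiss Webster background crossed to C57BL/6 for 9 generations or more. Ribosomes carrying the tag were pulled down with antibodies against EGFP (translating ribosome affinity purification, here IP), and input libraries were made without that step. The IP libraries came from cocaine self-administering mice of the escalating group (n = 2) and of the nonescalating group (n = 4), from saline self-administering mice (n = 3), from nonescalating cocaine mice after withdrawal (n = 9) and from saline mice after withdrawal (n = 5). The inputs came from the nonescalating, saline and saline withdrawal groups, 1 library each. Neither the ages, the length of withdrawal nor the number of mice per library is given in the labels, so the p-values speak only of the spread among libraries, which may be technical.

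Serotonin reaches the striatum in axons of the raphe nuclei of the brainstem and acts there on several families of G protein-coupled receptors. Htr1a, Htr1b and Htr1d couple to Gi and lower cyclic AMP, and Htr1b and Htr1d sit largely on axon terminals, where they curb transmitter release. Htr2a and Htr2c couple to Gq and activate phospholipase C. Htr4, Htr6 and Htr7 couple to Gs and raise cyclic AMP.

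Reads assigned to genes numbered 3279457 to 19122303 per IP library and 5016587 to 11549493 per input. Levels are given as CPM, a gene's counts scaled to a common library size after TMM, a normalization that aligns the bulk of genes between libraries. The markers Drd2, Adora2a, Penk, Gpr6, Sp9 and Gpr52 of D2 neurons summed to 2060 to 17655 CPM in the 23 IP libraries and to 1886 to 2023 CPM in the 3 inputs. Markers of D1 neurons summed to 45.1 to 111 CPM in IP libraries and 494 to 602 CPM in inputs. Markers of endothelium (Flt1, Cdh5, Cldn5, Pecam1 and Tek) summed to 41.2 to 3761 CPM in IP libraries and 34.05 to 254 CPM in inputs. Of these 5 genes, 3 were called higher by edgeR in IP against input libraries (Flt1, Cdh5 and Pecam1), and the median log2 fold change of the 5 was 3.22, with 1.93 for the 6 D2 markers. IP libraries also differed in reads that aligned outside annotated genes, from 21.2% to 70.7% of uniquely aligned reads, against 27.3% to 31.6% in inputs. Reads left uncounted as ambiguous between genes were 0.942% to 2.85% of uniquely aligned reads in IP libraries and 8.61% to 12.8% in inputs. Their part in the values of IP against input was not tested. Libraries were put in set A or set B by the numbers in their titles. The titles of 16 libraries of set A call them copies of earlier numbers. Saline withdrawal IP replicate 2 of set A carries no such mark and lists 32531 genes like the tables of set B, where the 16 list 32657, so its place in set A rests on its number alone. All 8 libraries of set B that are IP are from withdrawal groups, and the sets may differ in ways the labels do not state.

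The 4 receptors that were most abundant in IP libraries were Htr1b, Htr1d, Htr2a and Htr2c, and 3 of them (Htr1b, Htr1d and Htr2c) were lower in libraries with more reads outside genes, as described further on. Their promoter windows, 216 bases that run from 250 to 35 bases before the RefSeq start, are shown from RefSeq on GRCm38.p6, 5′ to 3′ on each gene's strand, because most results turn on these 4 genes. Capitals mark matches, on either strand, to a TATA box core (TATAAA), the core of a cyclic AMP response element (TGACG), an E-box (CANNTG) or a GC box (GGGCGG).
Htr1b (chr9:81633867-81634082, minus strand): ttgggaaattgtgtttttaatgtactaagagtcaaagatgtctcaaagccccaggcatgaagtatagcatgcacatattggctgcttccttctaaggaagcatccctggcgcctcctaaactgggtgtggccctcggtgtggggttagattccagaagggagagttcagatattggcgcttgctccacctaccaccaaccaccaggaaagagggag
Htr1d (chr4:136423274-136423489, plus strand): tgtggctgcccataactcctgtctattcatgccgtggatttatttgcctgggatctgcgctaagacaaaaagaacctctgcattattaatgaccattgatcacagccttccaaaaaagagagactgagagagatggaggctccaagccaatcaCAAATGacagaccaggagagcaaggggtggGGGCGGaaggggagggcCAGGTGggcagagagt
Htr2a (chr14:74640624-74640839, plus strand): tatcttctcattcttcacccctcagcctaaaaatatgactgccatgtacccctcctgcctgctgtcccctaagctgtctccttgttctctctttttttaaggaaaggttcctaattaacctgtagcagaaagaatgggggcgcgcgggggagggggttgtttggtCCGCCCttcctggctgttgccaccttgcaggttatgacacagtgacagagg
Htr2c (chrX:146962263-146962478, plus strand): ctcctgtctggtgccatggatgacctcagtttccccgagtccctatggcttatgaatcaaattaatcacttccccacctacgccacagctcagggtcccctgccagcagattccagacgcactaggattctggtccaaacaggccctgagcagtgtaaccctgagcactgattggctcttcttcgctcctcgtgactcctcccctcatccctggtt
The window of Htr1d held 2 E-boxes and 1 GC box, that of Htr2a held 1 GC box, and those of Htr1b and Htr2c held none of the 4 motifs. Of 27018 promoter windows of the same length, 61.4% held an E-box, 27.9% a GC box, 14.4% the response element core and 10.2% the TATA core. GC contents were 49.5% (Htr1b), 50.9% (Htr1d), 51.4% (Htr2a) and 55.1% (Htr2c).

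Htr1d and Htr2c were the receptors with the highest level per length in IP libraries. Per kilobase of merged GENCODE exons, Htr1d averaged 12.2 ± 5.80 CPM, Htr2c 9.27 ± 3.30 CPM, Htr1b 5.45 ± 3.01 CPM and Htr2a 4.30 ± 1.76 CPM per kilobase (SD, n = 23 IP libraries). The other receptors followed at 1.81 ± 1.99 (Htr6), 0.941 ± 0.647 (Htr4), 0.311 ± 0.485 (Htr1a) and 0.279 ± 0.274 (Htr7) CPM per kilobase. The ranges of every pair of neighbours in this order overlapped between libraries. Htr1d was above Htr2c in 17 of 23 IP libraries, Htr2c above Htr1b in 23 of 23, Htr1b above Htr2a in 14 of 23 and Htr2a above Htr6 in 21 of 23. Htr6 was above Htr4 in 16, Htr4 above Htr1a in 20 and Htr1a above Htr7 in 10 of 23. The order depends on the length used, in part because the merged exons of Htr2c span 9328 bases and its longest transcript 4883. Per kilobase of coding sequence Htr2c led with 60.1 CPM against 34.9 CPM for Htr1d, and Htr2c was above Htr1d in 23 of 23 libraries. On that scale Htr4 was also above Htr6, at 3.51 and 3.21 CPM per kilobase and in 16 of 23 libraries.

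**Figure D1:**
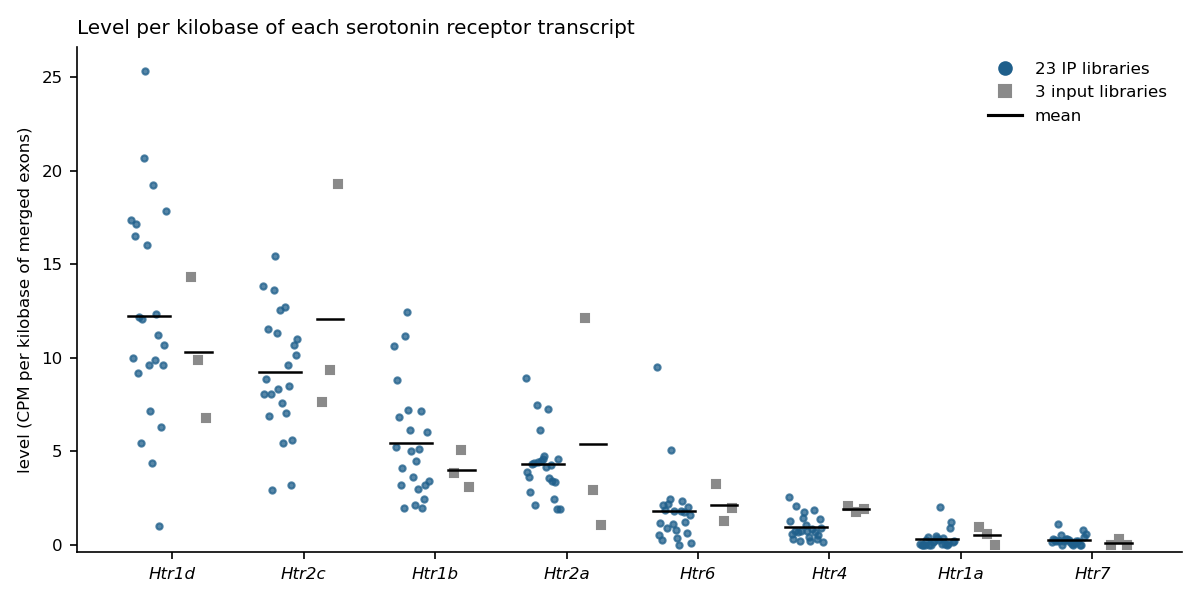
Level of each serotonin receptor transcript per kilobase of merged exons (vertical axis, CPM per kilobase), with the 23 IP libraries as circles, the 3 inputs as squares and means as lines. Htr1d and Htr2c average 12.2 and 9.27 CPM per kilobase in IP libraries, and Htr4, Htr1a and Htr7 stay under 1 on average.

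Grouped by G protein, the Gi-coupled receptors made up 50.7 ± 7.66% of the summed level per kilobase of merged exons of the 8 receptors in IP libraries (SD, n = 23) and 40.7 ± 10.7% in inputs (SD, n = 3). The Gq-coupled pair made up 40.5 ± 6.47% in IP libraries and 48.0 ± 10.5% in inputs. The Gs-coupled trio made up 8.84 ± 4.76% in IP libraries and 11.3 ± 0.665% in inputs. The order of the Gi and Gq means reversed with the other lengths. Per kilobase of coding sequence the shares in IP libraries were 39.7 ± 6.22% for Gi and 55.0 ± 6.07% for Gq, with Gi above Gq in 3 of 23 libraries, against 19 of 23 with merged exons. Per kilobase of the longest transcript they were 42.2 ± 6.89% for Gi and 50.7 ± 6.45% for Gq, with Gi above Gq in 7 of 23. Within the Gs trio the mean shares per kilobase of merged exons were 5.05 ± 3.57% for Htr6, 2.87 ± 1.60% for Htr4 and 0.928 ± 1.11% for Htr7. These shares describe transcripts and say nothing of receptor protein.

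Some members were close to the limit of counting. Htr1a was at 3 counts or fewer in 12 of 23 IP libraries and at 0 in 4 of them, with a highest count of 43. Htr7 was at 3 counts or fewer in 6 IP libraries and at 0 in 4, with a highest count of 28. A count of 0 allows up to 3 counts, so levels of these receptors under that floor are not distinguishable from 0. Htr6 had 3 counts or fewer in 2 IP libraries and Htr4 in 1, while the lowest count of Htr1b, Htr1d, Htr2a or Htr2c was 38 in IP libraries and 26 in inputs, both of Htr2a. All 8 receptors passed the filter on low counts in both fits.

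No serotonin receptor was called enriched or depleted by the purification of tagged ribosomes. The test was edgeR's quasi-likelihood test over 12 IP libraries and 3 inputs of the matched conditions, with calls at a Benjamini-Hochberg adjusted p under 0.05. It called 7.38% of 15612 genes and 0 of the 8 receptors. None of the 8 had an unadjusted p under 0.05, and DESeq2 and limma voom also called 0 of the 8. Of the 8 log2 fold changes 3 were positive, with a median of -0.31, against 0.16 over all genes tested. In dissected tissue, fewer cells of a type and less RNA per cell cannot be told apart.

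Htr1b, the terminal receptor encoded on chromosome 9 (81628291 to 81633828, GRCm38), was at 21.8 ± 10.2 CPM in IP libraries (SD, n = 12) and at 18.2, 24.0 and 14.6 CPM in the nonescalating, saline and saline withdrawal inputs. For Htr1b the log2 fold change was 0.35 ± 0.39 (SE, adjusted p = 0.601 by edgeR, 95% interval -0.47 to 1.18). Htr1d, its close relative on chromosome 4 (136423524 to 136444398), was at 35.8 ± 15.2 CPM in IP libraries (SD, n = 12) and at 45.9, 31.6 and 21.7 CPM in the same inputs. For Htr1d it was 0.31 ± 0.42 (SE, adjusted p = 0.686 by edgeR, interval -0.59 to 1.21). For both genes the inputs fell within the range of the IP libraries, and the upper limits of the intervals were 2.26-fold for Htr1b and 2.31-fold for Htr1d.

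Htr2a, the Gq-coupled receptor at which psychedelic drugs act, lies on chromosome 14 (74640840 to 74709494). It was at 19.0 ± 5.29 CPM in IP libraries (SD, n = 12) and at 68.1, 16.5 and 5.94 CPM in the nonescalating, saline and saline withdrawal inputs, an 11.5-fold spread among 3 libraries. Its log2 fold change over all 3 inputs was -0.34 ± 0.48 (SE, adjusted p = 0.696 by edgeR), and it was 0.84 without the nonescalating input. In the nonescalating condition all 4 IP libraries (15.7 to 24.7 CPM) were below the input, while in saline all 3 (19.1 to 24.1 CPM) and in saline withdrawal all 5 (10.6 to 25.8 CPM) were above theirs. The sum of markers of cortical glutamatergic neurons, cells in which Htr2a is abundant, followed the same order of inputs. Over Slc17a7, Neurod6, Tbr1 and Nrn1 it was 327 CPM in the nonescalating, 188 CPM in the saline and 4.57 CPM in the saline withdrawal input, and 0.128 to 39.2 CPM in IP libraries. Nrn1 by itself did not follow that order, at 14.3 CPM in the nonescalating and 24.4 CPM in the saline input. All 4 markers were detected in the first 2 inputs, whereas in the saline withdrawal input Nrn1 was at 0, Neurod6 at 0.228 and Tbr1 at 1.37 CPM. The part of such cells in the Htr2a level of the inputs was not tested.

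Htr2c, whose transcript is edited by adenosine deaminases, lies on chromosome X (146962513 to 147197277). It was at 78.7 ± 22.8 CPM in IP libraries (SD, n = 12) and at 71.5, 87.0 and 180 CPM in the nonescalating, saline and saline withdrawal inputs. For Htr2c the log2 fold change was -0.28 ± 0.24 (SE, adjusted p = 0.486 by edgeR, 95% interval -0.78 to 0.23), and it was 0.03 without the saline withdrawal input. That input was above all 5 IP libraries of its condition (29.7 to 103 CPM). The choroid plexus, which expresses Htr2c strongly, was checked through 8 markers, which summed to 8.40, 19.9 and 20.1 CPM in the same order of inputs and 3.002 to 37.6 CPM in IP libraries. In the saline withdrawal input Kl was at 12.8 CPM, Clic6 at 5.25 CPM, Ttr at 1.60 CPM and Otx2 at 0.457 CPM, and Folr1, Aqp1, Sostdc1 and Kcne2 were at 0. Clic6 was higher in the other inputs, at 8.40 CPM in nonescalating and 17.3 CPM in saline, while Kl was lower, at 0 and 2.34 CPM.

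The remaining receptors gave wide intervals. Htr4 was at 4.27 ± 2.94 CPM in IP libraries (SD, n = 12) and at 10.2, 8.56 and 9.36 CPM in inputs, and it was below its own input in 11 of 12 IP libraries. The log2 fold change of Htr4 was -0.99 ± 0.65 (SE, adjusted p = 0.351 by edgeR). Htr6, on chromosome 4 (139061108 to 139075570), was at 3.31 ± 1.72 CPM in IP libraries and 7.61, 2.96 and 4.57 CPM in inputs, and its fold change on the log2 scale was -0.53 ± 0.78 (SE, adjusted p = 0.705 by edgeR). Htr1a, on chromosome 13 (105443639 to 105448122), was at 1.32 ± 1.75 CPM in IP libraries and 4.24, 2.65 and 0 CPM in inputs, with -1.49 ± 1.58 (SE, adjusted p = 0.584 by edgeR). Htr7, on chromosome 19 (35958734 to 36057507), was at 1.16 ± 1.15 CPM in IP libraries and at 0, 1.09 and 0 CPM in inputs, with 1.83 ± 1.65 (SE, adjusted p = 0.512 by edgeR). For Htr1a and Htr7 these estimates rest on 48 and 7 counts in the highest input.

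**Figure D2:**
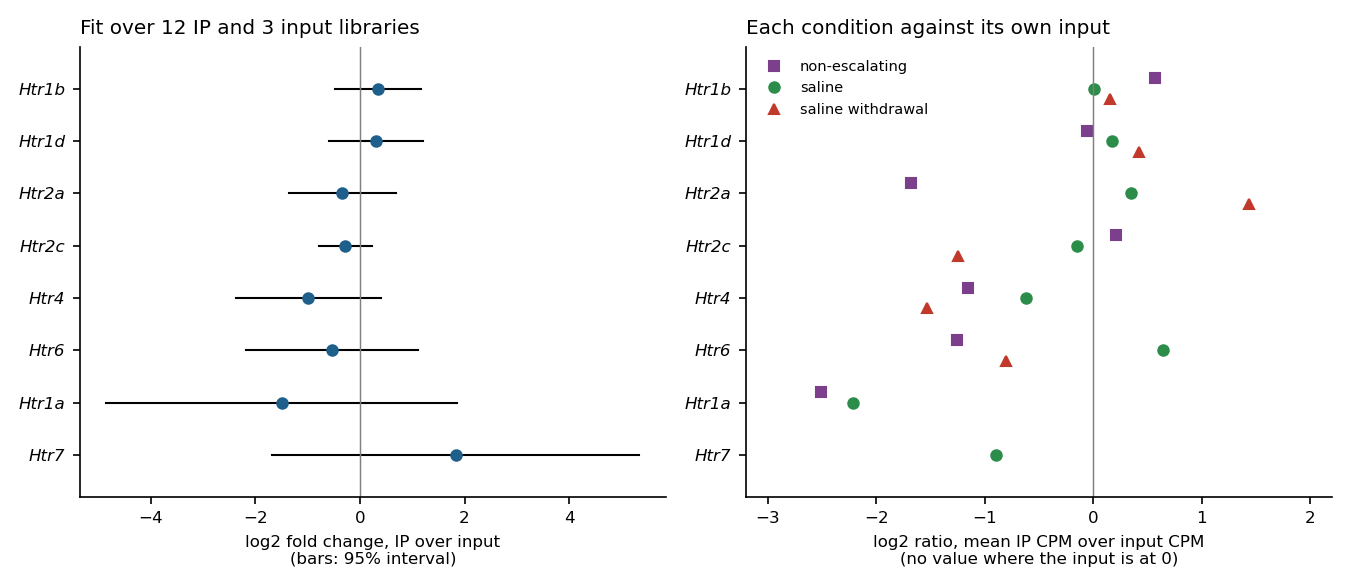
Left, log2 fold change of each receptor in IP over input libraries, with 95% intervals, all of which cross 0. Right, log2 ratio of the mean IP level to the input level within each of 3 conditions, in which Htr2a lies at -1.68 in the nonescalating and 1.43 in the saline withdrawal condition.

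Cocaine intake did not give a called change of any receptor before withdrawal. Between escalating and saline, nonescalating and saline, and escalating and nonescalating IP libraries, edgeR called 0% of 16910 genes in each comparison and 0 of the 8 receptors. At an unadjusted p under 0.05 stood 518, 356 and 558 of the 16910 genes and 0 of the 8 receptors. DESeq2 called 6, 2 and 11 genes and limma voom 0, with no receptor among them. The first 2 comparisons share the saline libraries, and the third shares libraries with both.

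**Figure D3:**
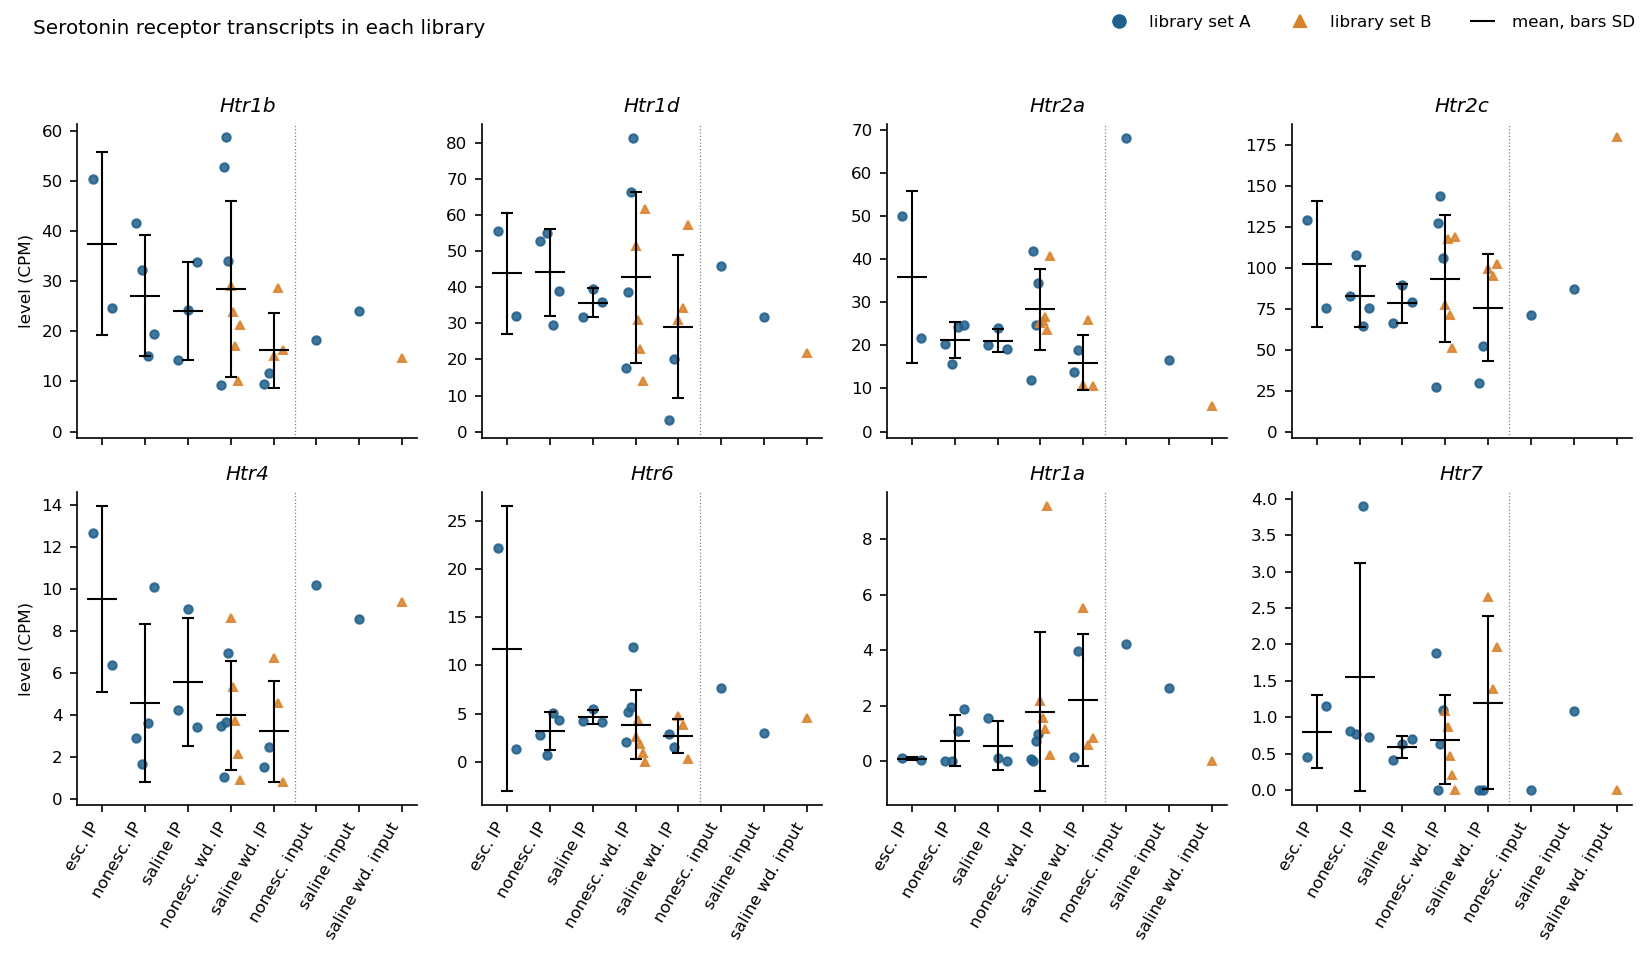
Level of each receptor (vertical axes, CPM, each panel with its own scale) in every library, by group, with set A as circles and set B as triangles, and bars for the mean and SD. Among the IP groups compared, libraries overlap in every panel except that of Htr7. Its nonescalating and saline IP libraries do not overlap at 0.729 to 3.89 and 0.416 to 0.707 CPM (6 to 28 and 5 to 8 counts), but they do without TMM. How many of all genes lack overlap in the same way was not counted. On the axis esc., nonesc. and wd. stand for escalating, nonescalating and withdrawal.

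The Gi-coupled receptors Htr1b and Htr1d overlapped between cocaine and saline groups. Htr1b was at 50.3 and 24.6 CPM in escalating, at 41.5, 32.2, 15.02 and 19.5 CPM in nonescalating and at 14.2, 24.2 and 33.8 CPM in saline IP libraries. Against saline its log2 fold change was 0.64 ± 0.67 in escalating and 0.16 ± 0.57 in nonescalating mice (SE, adjusted p = 1 by edgeR for both). Htr1d was at 55.6 and 32.0 CPM in escalating, at 52.8, 55.0, 29.5 and 39.1 CPM in nonescalating and at 31.7, 39.6 and 36.0 CPM in saline IP libraries. For Htr1d it was 0.30 ± 0.75 in escalating and 0.30 ± 0.63 in nonescalating mice (SE, adjusted p = 1 by edgeR for both). In both genes 1 escalating library was above all saline libraries and the other within their range.

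The Gq-coupled pair showed the same spread in escalating mice. Htr2a was at 50.0 and 21.8 CPM in escalating, at 20.3, 15.7, 24.2 and 24.7 CPM in nonescalating and at 20.05, 24.1 and 19.1 CPM in saline IP libraries. Its log2 fold change against saline was 0.77 ± 0.48 in escalating and 0.02 ± 0.41 in nonescalating mice (SE, adjusted p = 1 by edgeR for both), and 0.75 ± 0.45 between the cocaine groups (adjusted p = 1 by edgeR). Htr2c was at 129 and 75.4 CPM in escalating, at 82.9, 108, 64.3 and 75.5 CPM in nonescalating and at 66.1, 89.8 and 79.2 CPM in saline IP libraries. For Htr2c it was 0.39 ± 0.54 in escalating and 0.08 ± 0.45 in nonescalating mice (SE, adjusted p = 1 by edgeR for both). Escalating replicate 1 was the higher of its pair for every receptor but Htr7, and it also held the highest sum of D2 markers of all libraries, 17655 CPM, with 8474 CPM in replicate 2. The part of that difference between the pair in the receptor levels was not tested. Without escalating replicate 1 the log2 fold changes against saline were 0.041 (Htr1b), -0.15 (Htr1d), 0.057 (Htr2a) and -0.046 (Htr2c), and that of Htr2a between the cocaine groups was 0.038.

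Among Gs-coupled receptors, Htr4 was at 12.7 and 6.398 CPM in escalating IP libraries, with medians of 3.27 CPM in nonescalating (n = 4) and 4.24 CPM in saline IP libraries (n = 3). Htr6 was at 22.2 and 1.26 CPM in escalating, 0.640 to 5.01 CPM in nonescalating and 4.15 to 5.48 CPM in saline IP libraries, so that the escalating pair lay on either side of all saline libraries. With TMM scaling, Htr7 gave the one pair of groups that did not overlap among 48 pairs of groups and receptors compared. How many of all genes lack overlap in the same way was not counted, so the Htr7 pair is given only as a description. Its 4 nonescalating libraries (0.729 to 3.89 CPM, 6 to 28 counts) lay above its 3 saline libraries (0.416 to 0.707 CPM, 5 to 8 counts), in a comparison in which edgeR called 0% of genes. Without TMM that pair overlapped too, with nonescalating replicates 1 and 2 at 0.679 and 0.705 CPM and saline replicate 4 at 0.742 CPM. Htr1a was under 2 CPM in all 9 of these libraries. Fitted log2 fold changes of the 8 receptors ran from -2.52 to 1.34 in escalating and from -0.52 to 1.39 in nonescalating against saline mice. The ends in escalating mice each rest on 1 library. Htr1a, at 2 and 1 counts in the escalating pair, moved to 0.54 without saline replicate 1, and Htr6 to -1.85 without escalating replicate 1. In nonescalating mice the ends were Htr6 (-0.52 ± 1.04) and Htr7 (1.39 ± 1.51, SE). Leaving out 1 library moved these between -0.83 and -0.18 and between 0.37 and 1.62.

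After withdrawal, cocaine and saline mice were compared with 9 and 5 IP libraries. In nonescalating withdrawal against saline withdrawal IP libraries, edgeR called 0% of 16910 genes and 0 of the 8 receptors. Unadjusted p was under 0.05 for 882 genes, among them 1 receptor, Htr2a, and DESeq2 called 1 gene and limma voom 0, neither a receptor. The median log2 fold change of the 8 receptors was 0.38 and that of all genes 0.01.

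Htr2a was at 12.04, 25.6 and 42.0 CPM (lowest, median and highest of 9) in nonescalating withdrawal IP libraries. In saline withdrawal it was at 13.9 and 18.9 CPM in set A and at 10.8, 25.8 and 10.6 CPM in set B. Of the 9 cocaine libraries 4 were above all 5 saline libraries, and the groups overlapped. The log2 fold change was 0.82 ± 0.31 (SE, unadjusted p = 0.0152, adjusted p = 0.749 by edgeR, 95% interval 0.17 to 1.46), so the difference did not pass the correction over all genes. It was 0.81 within set A and 0.83 within set B. Over 24 alternative settings it stayed positive, from 0.64 to 1.10, with adjusted p from 0.410 to 1. The cortical markers listed above summed to 3.24 to 38.8 CPM in cocaine and 2.99 to 38.4 CPM in saline withdrawal IP libraries. The interaction of cocaine with withdrawal, which sets this difference beside the one before withdrawal, was 0.80 ± 0.51 for Htr2a (SE, adjusted p = 1 by edgeR). That comparison called 0% of 16910 genes by edgeR, with 345 genes and 0 receptors at an unadjusted p under 0.05, 2 genes by DESeq2 and 0 by limma voom. All 6 D2 markers also had a positive log2 fold change in nonescalating against saline withdrawal (median 0.67) and in the interaction (median 0.62). Of these markers edgeR called 0 in either, and their part in the Htr2a difference was not tested.

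The means of Htr1b, Htr1d and Htr2c stood further apart between withdrawal groups in set A than in set B, a difference between sets that was not tested. Htr1b averaged 38.7 ± 22.2 CPM in cocaine (n = 4) and 10.6 ± 1.61 CPM in saline libraries (n = 2) of set A, and 20.2 ± 7.12 CPM (n = 5) and 19.99 ± 7.48 CPM (n = 3) in set B (SD). Htr1d averaged 50.9 ± 28.4 CPM in cocaine and 11.7 ± 12.01 CPM in saline libraries of set A, and 36.2 ± 19.8 CPM and 40.7 ± 14.3 CPM in set B. Htr2c averaged 101 ± 51.6 CPM in cocaine and 41.0 ± 15.99 CPM in saline libraries of set A, and 87.1 ± 29.9 CPM and 98.9 ± 3.92 CPM in set B. Over both sets the log2 fold changes were 0.70 ± 0.45 (Htr1b), 0.64 ± 0.51 (Htr1d) and 0.38 ± 0.35 (Htr2c) (SE, adjusted p = 0.749, 0.751 and 0.772 by edgeR). Within set A they were 1.91, 2.16 and 1.33, and within set B -0.0046, -0.20 and -0.21. Over both sets they were 0.48, 0.51 and 0.27 with saline withdrawal replicate 2 of set A as a set of its own, and 0.41, 0.20 and 0.10 without replicate 1 of that set. The saline withdrawal libraries of set A had 52.7% and 70.7% of reads outside genes, against 28.7% to 60.7% in the cocaine withdrawal libraries of that set. Their D2 markers summed to 2060 and 4408 CPM, with 4945 to 15900 CPM in the cocaine withdrawal libraries. Endothelial markers summed to 244 to 2946 CPM in cocaine and to 2415 and 3761 CPM in saline withdrawal libraries of set A, and to 41.2 to 1910 CPM in cocaine and 722 to 1624 CPM in saline libraries of set B. All 5 endothelial markers had a negative log2 fold change in nonescalating withdrawal against saline withdrawal, with a median of -1.02, and edgeR called 0 of the 5. The part of endothelial RNA and of the D2 marker difference in the receptor levels was not tested. In set B reads outside genes were 29.8% to 58.4% in cocaine and 31.9% to 46.4% in saline libraries. D2 markers of set B summed to 4023 to 10120 CPM in cocaine and 6276 to 6829 CPM in saline libraries. With the share of reads outside genes as a covariate the log2 fold changes became 0.30, 0.28 and -0.0069, and that of Htr2a 0.68.

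Withdrawal itself gave no called receptor. In saline withdrawal against saline IP libraries edgeR called 0% of 16910 genes and 0 of the 8 receptors, with 885 genes and 0 receptors at an unadjusted p under 0.05, 7 genes by DESeq2 and 0 by limma voom. In nonescalating withdrawal against nonescalating IP libraries it called 0% of 16910 genes and 0 of the 8 receptors, with 763 genes and 0 receptors at an unadjusted p under 0.05, 12 genes by DESeq2 and 0 by limma voom. The log2 fold change of Htr2a was -0.40 ± 0.43 in saline withdrawal against saline and 0.39 ± 0.36 in nonescalating withdrawal against nonescalating mice (SE, adjusted p = 0.796 and 0.926 by edgeR). Over the 8 receptors they ran from -1.11 (Htr4) to 1.03 (Htr1a) in the saline and from -1.37 (Htr7) to 0.60 (Htr6) in the cocaine mice. Htr1a and Htr7 were near the floor of counting, with SE of 1.70 and 1.21 in these comparisons. Leaving out 1 library moved Htr1a between -1.02 and 4.09 and Htr7 between -2.16 and -0.35. Htr4 medians were 3.70 CPM in nonescalating withdrawal and 2.49 CPM in saline withdrawal IP libraries, and those of Htr6 were 2.59 and 2.83 CPM. Both saline withdrawal libraries of set A were at 0 for Htr7, while the 3 of set B were at 1.39 to 2.66 CPM. In saline withdrawal against saline, 0 of 6 D2 markers (median log2 fold change -0.63) and 5 of 5 endothelial markers (median 1.53) were positive. In nonescalating withdrawal against nonescalating, 2 of 6 D2 markers (median -0.12) and 5 of 5 endothelial markers (median 0.44) were. The part of these markers' differences in the receptor levels was not tested.

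Across all 23 IP libraries, Htr1b, Htr1d and Htr2c were lower where more reads fell outside genes. Pearson's r between the log2 CPM (prior count 2) and that share was -0.80 for Htr1b, -0.81 for Htr1d and -0.85 for Htr2c, with Spearman's rho of -0.80, -0.68 and -0.78. The permutation p-values (100000 resamples, two-sided) were 1e-05, 2e-05 and 1e-05, of which 1e-05 is the smallest they can give, and the adjusted p-values over 16 relations were 4e-05, 6.4e-05 and 4e-05. Adjusted p-values for rho were 0.00016, 0.00173 and 0.00016. Within set A (n = 15) r was -0.84, -0.88 and -0.89, with permutation p of 0.00011, 1e-05 and 1e-05. Within set B r was -0.69, -0.54 and -0.88, with exact permutation p of 0.062, 0.187 and 0.0082 (n = 8). When the 2 libraries with the most deviating shares were left out r was -0.74, -0.68 and -0.75. How many of all genes relate as closely to that share was not counted, so the relation is not shown to be particular to these receptors.

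For Htr2a the relation to that share was r = -0.41 and rho = -0.38 (permutation p = 0.0554 and 0.0797, adjusted p = 0.103 and 0.116), and r = -0.20 without the 2 farthest libraries. Of the Gs-coupled receptors and Htr1a, none had an adjusted p under 0.05 for r or rho, with r from -0.23 to 0.32. The highest of these, 0.32 for Htr1a (permutation p = 0.129), became 0.66 without its 2 farthest libraries. The same 3 receptors rose with the mean log2 CPM of the D2 markers, with r = 0.85 for Htr1b, 0.86 for Htr1d and 0.76 for Htr2c, and rho = 0.87, 0.75 and 0.72 (adjusted p by permutation between 4e-05 and 0.000352). Within set A r was 0.85, 0.95 and 0.88, and within set B 0.82, 0.72 and 0.88 (exact permutation p = 0.0199, 0.0614 and 0.0125, n = 8). Without the 2 libraries farthest from the median, r was 0.84, 0.69 and 0.62. For Htr2a it was r = 0.45 and rho = 0.42 (permutation p = 0.0326 and 0.0484, adjusted p = 0.0746 and 0.0775). For Htr6 and Htr1a, rho with the D2 markers was 0.53 and -0.50 (adjusted p by permutation 0.0242 and 0.0342), while r was 0.35 and -0.40 (adjusted p 0.162 and 0.103). Both measures describe the libraries, and their part in the receptor levels was not tested. The relation to the D2 markers was likewise not counted over all genes.

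**Figure D4:**
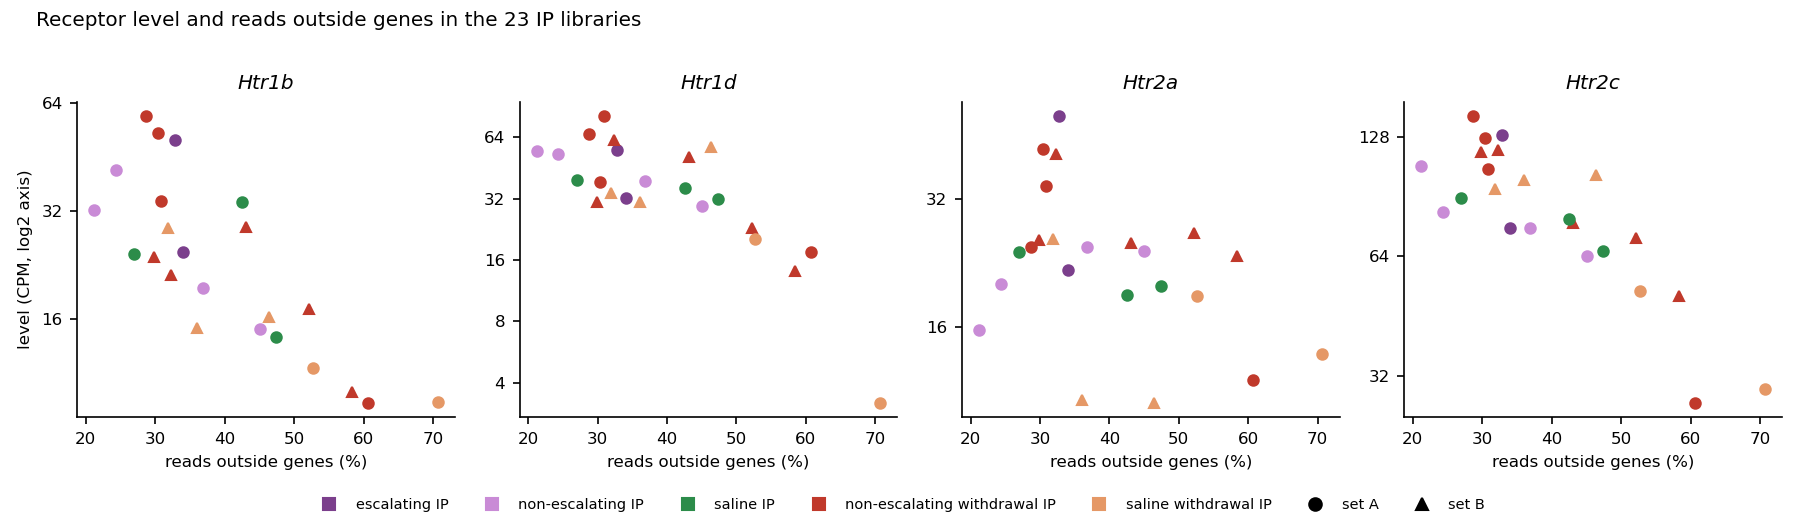
Level of the 4 abundant receptors (vertical axes, CPM on a log2 scale) against the percentage of uniquely aligned reads outside genes in the 23 IP libraries, coloured by group, with set A as circles and set B as triangles. Htr1b, Htr1d and Htr2c fall with the share (r of -0.80, -0.81 and -0.85), and Htr2a has r = -0.41.

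The biological coefficient of variation, edgeR's estimate of the spread between libraries beyond counting error, was 57.4% for Htr1d, 52.7% for Htr1b, 42.7% for Htr2c and 39.6% for Htr2a. Of 2201 genes of similar level 87.1% had a lower value than Htr1d, and of 2274 genes 32.7% had a lower value than Htr2a. Pearson's r between pairs of receptors over the 23 IP libraries, given as a description, was 0.71 for Htr1b with Htr1d, 0.80 for Htr1b with Htr2c and 0.81 for Htr1d with Htr2c. Many genes were more like these receptors than they were like each other. Among the 10370 genes ranked, Htr2c was the gene of rank 371 and Htr1d of rank 1083 in likeness to Htr1b, and Htr2c was of rank 556 in likeness to Htr1d. Htr2a had r = 0.57 with Htr1b, 0.50 with Htr2c and 0.39 with Htr1d.

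Likeness to each abundant receptor was ranked by r of the log2 CPM over the 23 IP libraries, among 10370 genes whose mean reached 5 CPM. Htr1b was most like Ldoc1l (r = 0.91), Cpe (0.90), which encodes carboxypeptidase E, and Tgfa (0.90), a ligand of the epidermal growth factor receptor. Htr1d was most like Cplx2 (0.94), which encodes the synaptic protein complexin, Fbxl16 (0.94) and Diras2 (0.94). Htr2c was most like Kcnq5 (0.95), a potassium channel, Synj1 (0.95), the vesicle phosphatase synaptojanin, and Celf1 (0.95), an RNA-binding protein. Htr2a had lower highest values, with Tubg2 (0.76), Fabp5 (0.74) and Vstm2a (0.72). These 12 genes themselves had r from -0.90 to -0.47 with the share of reads outside genes, and all points share their libraries.

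Counting set a limit for Htr1b. Of its 4724 bases of merged exons 852 (18.04%) overlap the gene D430036J16Rik on the opposite strand, and no source used here gives the strand setting, so reads of the overlap cannot be told apart. D430036J16Rik had 0.257 to 1.94 counts per Htr1b count in IP libraries (median 0.740) and 0.461 to 2.30 in inputs. The exons of the other 7 receptors overlapped those of no other gene.

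Other genes of the serotonin system were read from lists of receptors, of synthesis, transport and breakdown, and of effectors and partners. Their IP means are over all 23 IP libraries, while tests against input used the 12 IP libraries of the conditions with an input. Of the 6 other receptors, Htr5a was at 10.9 ± 5.86 CPM in IP libraries (SD, n = 23) and 13.8 ± 12.01 CPM in inputs (SD, n = 3). Htr3a and Htr3b, subunits of the serotonin-gated ion channel, were at 0 in 19 and 20 of 23 IP libraries, and Htr5b in 19. Of the 3 tested between IP and input (Htr1f, Htr2b and Htr5a) edgeR called 0, with Htr1f at a log2 fold change of -2.03 ± 0.84 (SE, unadjusted p = 0.0276, adjusted p = 0.141 by edgeR). Tph2, the neuronal enzyme of serotonin synthesis, was at 0 in 22 of 23 IP libraries, and Slc6a4, the serotonin transporter, in 19, at no more than 0.974 CPM. Of the 8 genes of synthesis, transport and breakdown 5 were tested and 0 called. Among them Maoa, a monoamine oxidase, was at 38.2 ± 26.1 CPM in IP libraries and 21.4 ± 9.13 CPM in inputs, and Aldh2, which oxidises the aldehyde product, at 35.4 ± 16.6 CPM in IP libraries and 10.3 ± 8.66 CPM in inputs (adjusted p = 0.0715 by edgeR).

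Of 20 effectors, partners and editing enzymes, 1 was called higher and 2 lower in IP against input libraries, where 7.38% of all genes tested were called. Plcb1, the phospholipase C that Gq activates, was at 913 ± 217 CPM in IP libraries (SD, n = 23) and 529.7 ± 42.5 CPM in inputs (SD, n = 3), and rose by a log2 fold change of 0.81 ± 0.21 (SE, adjusted p = 0.029 by edgeR). Gnai1, a Gi alpha subunit, was at 124 ± 49.6 CPM in IP libraries and 335 ± 59.0 CPM in inputs, with a log2 fold change of -1.56 ± 0.19 (SE, adjusted p = 0.000174 by edgeR). Gnas, the Gs alpha subunit, was at 429 ± 92.1 CPM in IP libraries and 701 ± 215 CPM in inputs, with -0.78 ± 0.21 (SE, adjusted p = 0.0333 by edgeR). Gnal, the related subunit that striatal neurons use in its place, was at 2774 ± 1022 CPM in IP libraries and 2216 ± 265 CPM in inputs, with 0.33 ± 0.23 (SE, adjusted p = 0.384 by edgeR). Adcy5, the main adenylyl cyclase of the striatum, was at 682 ± 326 CPM in IP libraries and 701 ± 131 CPM in inputs, with -0.045 ± 0.33 (SE, adjusted p = 0.948 by edgeR). In the 7 comparisons among IP groups edgeR called 0 genes of these 3 lists.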

How the data were processed

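The authors deposited, for each library, a table of unnormalized counts by gene symbol. The submitters' processing notes name STAR 2.0.0e, HTSeq and the mm10 build; no source used here gives the annotation release, the strand setting or any filter. Of the tables, 10 list 32531 genes and 16 list 32657. Joining 31735 shared symbols and 244 genes listed under an older name made 31979 genes. Entries that name no gene served solely to compute the percentages of reads outside genes and of ambiguous reads. Lengths and coordinates are from GENCODE M21.

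Counts were tested in R 4.3.3 with edgeR 4.0.16 (TMM, filterByExpr, quasi-likelihood): IP against input with condition and library set as terms (15 libraries, 10 residual degrees of freedom), and the 23 IP libraries in 1 fit with group and set (16910 genes, 17 residual degrees of freedom). Adjustment ran over all genes tested. Alternatives used DESeq2 1.42.0, limma 3.58.1 voom with library weights, RLE factors, no filter, no set term, a replicate block, the share of reads outside genes, single sets, and each library left out. On simulated data, 35% of genes changed 4-fold were recovered for IP against input and 48% for cocaine against saline after withdrawal. For escalating against saline it was 7%, and at 2-fold the shares in the same order were 3%, 4% and 0%. Unchanged genes called numbered 0, 5 and 0. Only a small random part of the genes was changed, so these rates may not hold where more genes differ, as between IP and input. None of 56 same-group pairs of libraries was identical, and chi-square per degree of freedom between them was 11.8 to 265. Residuals of the 25 pairs of libraries with the same number correlated at a median of -0.289 (-0.732 to 0.660), and those of 78 further pairs at -0.0884. The fit binds residuals of small groups to each other, so these values cannot decide whether replicate numbers pair libraries. No pairing was assumed in the main fits, because the labels state none and the numbers repeat between sets.

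Named genes are the 8 receptors, the called and the most abundant genes of the 3 serotonin lists, and for each receptor with a mean of at least 5 CPM the 3 genes most like it. Receptors and lists were chosen with earlier results of these data known. Floors and intervals cover counting error or the spread between libraries only. A marker of the cortical neuron list is not reported here, and its sums are over the other markers.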

Additional observations from a re-analysis of the deposited data

Results flagged for a closer look

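Of 24 sets of a receptor and a group with 4 to 10 libraries, 3 held a library far from the others by Dixon's test. For normally distributed levels chance flags about 1 in 20 (1.2 of 24). The test used CPM without a log scale and normality was not checked, so that rate may not hold here. Htr1a was at 9.19 CPM (43 counts) in nonescalating withdrawal IP set B replicate 4, the library with 58.4% of reads outside genes, and the next of the 9 libraries was at 2.16 CPM. Htr6 was at 11.9 CPM (130 counts) in nonescalating withdrawal IP set A replicate 4, and the next of the 9 was at 5.70 CPM. Htr7 was at 3.89 CPM (28 counts) in nonescalating IP replicate 3, and the next of the 4 was at 0.807 CPM.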

How the results depend on the processing

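The count of receptors called stayed at 0 in all 8 comparisons under every alternative run, the replicate block included (0 receptors called with the replicate block), and the lowest adjusted p for a receptor was 0.0752 in IP against input (Htr7) and 0.146 in nonescalating against saline withdrawal. The order per kilobase kept 4 of 8 ranks with coding length and 6 with the longest transcript, and the shares by G protein under both lengths were added after seeing the data. Leaving out 1 library moved log2 fold changes in IP against input between -0.89 and 0.84 for Htr2a and between -0.50 and 0.030 for Htr2c. In escalating against saline it moved Htr1d between -0.15 and 0.64, Htr2a between 0.057 and 1.25, Htr2c between -0.046 and 0.72 and Htr6 between -1.85 and 2.26, with the low ends without escalating replicate 1. In nonescalating against saline it moved Htr1b between -0.13 and 0.50, Htr2a between -0.086 and 0.15 and Htr2c between -0.066 and 0.17. The share of reads outside genes as a covariate gave -0.083 for Htr1d in escalating against saline, and -0.34, -0.18, -0.062 and -0.27 for Htr1b, Htr1d, Htr2a and Htr2c in nonescalating against saline. Limma voom with library weights gave -0.24 for Htr1b and -0.016 for Htr2c in the last comparison. In nonescalating against saline withdrawal the covariate gave -0.0069 for Htr2c, and set B alone gave -0.0046, -0.20 and -0.21 for Htr1b, Htr1d and Htr2c; the cause of these changes was not tested. In IP against input the replicate block called 46 genes, against 1152 without it, DESeq2 called 2907, and without the low-count filter 1479 were called. At these depths Htr1a and Htr7 were near the floor, and 1 input per condition leaves 10 residual degrees of freedom.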
